A study of Homo sapiens with 6 samples.

Results

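The 10 genes described here encode factors that start the removal of messenger RNA by shortening its poly(A) tail. They are the AU-rich element binding proteins ZFP36, ZFP36L1 and ZFP36L2, the antiproliferative proteins BTG1, BTG2, TOB1 and TOB2, and the deadenylase subunits CNOT6L, CNOT7 and CNOT8. They were chosen by gene symbol, and each symbol matched 1 row among the 56832 rows of the count tables. All 10 were among the 17415 genes that passed the filter on low counts. The cells were HEK293T, a human embryonic kidney epithelial line, and both groups carried a knockout of GLO1, the enzyme that starts the clearance of methylglyoxal (MGO), a reactive by-product of glycolysis. The tested libraries, numbered 1, 3 and 4, came from GLO1-knockout cells kept overnight in 0.2 mM MGO, and the comparison libraries, numbered 1, 2 and 4, came from untreated GLO1-knockout cells. The title of the series concerns glycation of histone H3 and the promoter mark H3K4me3. The labels do not say whether the line is a single clone, nor whether each library had its own culture. The p-values therefore speak of how far these 6 libraries scatter, and that scatter may be technical.

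As background, most mRNAs are degraded after the CCR4-NOT complex has trimmed their poly(A) tails. Proteins of the ZFP36 family hold a pair of CCCH zinc fingers that bind the word UAUUUAU in the 3′ untranslated region (UTR) of short-lived mRNAs, such as those of cytokines and immediate early genes, and they bring CCR4-NOT to these mRNAs. BTG and TOB proteins share a domain that binds the deadenylases CNOT7 and CNOT8 and, with the help of the poly(A)-binding protein, they direct deadenylation to many mRNAs. CNOT7 and CNOT8 are alternative subunits that take the same place in the complex, and so are CNOT6 and CNOT6L, which form the other class of deadenylase.

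The mRNAs of the ZFP36 family themselves carry the words that the family binds. In the longest annotated 3′ UTR of each gene, the full word TTATTTATT (DNA letters on the strand of the mRNA) occurred once in each of ZFP36, ZFP36L1 and ZFP36L2 and in none of the other 7 genes, while 9.55% of the 13413 tested genes with an annotated 3′ UTR held it. The shorter word TATTTAT, which the family binds, occurred in 9 of the 10 genes, all but TOB1. The sites are shown because they hold these words, the first 3 with the full word and BTG2 and TOB2 with the shorter word alone. Capitals mark TTATTTATT in the first 3 and the shorter word TATTTAT in the last 2, on GRCh38, 5′ to 3′.
ZFP36: ttatttatgacgactTTATTTATTc
ZFP36L1: ctgttggaTTATTTATTttagaaat
ZFP36L2: aactatttaacTTATTTATTatctt
BTG2: atgaagagcTATTTATatatattat
TOB2: gcaagtcctTATTTATatgtgaggc
The ZFP36 site lies at chr19:39409191-39409215 on the plus strand, and its window holds a second copy of TATTTAT in lower case. The ZFP36L1 site lies at chr14:68788079-68788103 on the minus strand, the ZFP36L2 site at chr2:43223453-43223477 on the minus strand, the BTG2 site at chr1:203307530-203307554 on the plus strand and the TOB2 site at chr22:41435382-41435406 on the minus strand. The ZFP36 3′ UTR is short (713 bases) and held 3 copies of TATTTAT and 5 of ATTTA, or 7.01 ATTTA per kb, against a median of 1.67 per kb over the tested genes. CNOT6L and CNOT7 held the most copies of ATTTA (26 and 20), in UTRs of 7044 and 5756 bases, which is 3.69 and 3.47 per kb. TOB1 held 4 copies of ATTTA and no TATTTAT, while 35.9% of the tested genes held TATTTAT. A match of letters is a description and does not show that a protein binds there.

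MGO libraries held 19195920 to 21544749 counts and untreated libraries 41002134 to 45910040 (two-sided exact permutation p = 0.1, which is as low as 3 against 3 libraries can go). With the untreated libraries thinned to the MGO depth, the log2 fold change was 3.23 for ZFP36 and -0.90 for CNOT7, and the slight falls of BTG2 and TOB1 were no longer called. Mitochondrial transcripts took 5.34% to 8.17% of counts in MGO and 4.2% to 5.42% in untreated libraries, highest in the library numbered 1 of each group. The 10 genes held 14058 to 16685 counts together in an MGO library and 29246 to 33321 in an untreated one. The targeted gene GLO1 stood at 140 ± 5.30 CPM in MGO and 48.1 ± 2.57 CPM in untreated cells (SD, n = 3 each). These counts cover all exons and cannot reveal a short lesion, so they are no check of the knockout. All 9 epithelial and HEK293T markers were detected, and 5 rose while 4 fell. Their sum was 1920 to 1950 CPM in MGO and 1540 to 1580 CPM in untreated libraries, with the keratin KRT8 at 824 ± 6.89 CPM in MGO and 525 ± 12 CPM in untreated cells. The kidney factor PAX2 fell to 2.78 ± 0.26 CPM in MGO, against 13.2 ± 0.825 CPM in untreated cells, and the neurofilaments NEFL to 38.1 ± 1.46 CPM, against 165 ± 0.692 CPM, and NEFM to 0.44 ± 0.204 CPM, against 1.57 ± 0.0596 CPM. Of 12 markers of leukocytes, endothelium, fibroblasts and other cells, 2 reached 1 CPM in any library, none was at 0 in every library, and their sum was 13.7 to 14.7 CPM in MGO and 24.4 to 25.3 CPM in untreated libraries. Most of that sum was COL1A1, at 11.5 ± 0.857 CPM in MGO and 22.8 ± 0.658 CPM in untreated cells. Of the 4 that passed the filter, COL1A1 and COL3A1 (0.217 ± 0.195 CPM in MGO and 0.489 ± 0.0807 CPM in untreated cells) fell, GFAP (0.759 ± 0.287 CPM in MGO and 0.334 ± 0.091 CPM in untreated cells) rose, and CD14 was not called. The part of the mitochondrial share or of these markers in the results was not tested.

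Within the group, ZFP36 rose strongly, CNOT7 fell clearly, and the other 8 genes moved by less than 1.5-fold. ZFP36, ZFP36L1, ZFP36L2, BTG1 and TOB2 rose, and CNOT7, CNOT6L, BTG2 and TOB1 fell, while CNOT8 did not pass the test. That is 9 of 10 genes called by edgeR at an adjusted p under 0.05, a share close to the background, since 83.1% of all tested genes were called (41.8% higher and 41.2% lower). Against a fold of 1.5 in place of 1, only ZFP36 and CNOT7 were called, 2 of 10, while 47.7% of all tested genes passed that rule (25.1% higher and 22.6% lower). ZFP36 was also the 1 gene called and at least 2-fold higher, beside 19.8% of all tested genes, and none of the 10 was called and at least 2-fold lower, beside 16.7%. The median size of the log2 fold change, regardless of sign, was 0.35 over the 10 genes and 0.71 over all tested genes. The median with sign was 0.16 over the 10 genes and 0.0053 over all tested genes. Values below are counts scaled by library size and TMM factor (CPM), so each change is measured against the other genes of that library. In such bulk RNA, fewer cells of a type and less RNA per cell cannot be told apart.

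**Figure D1:**
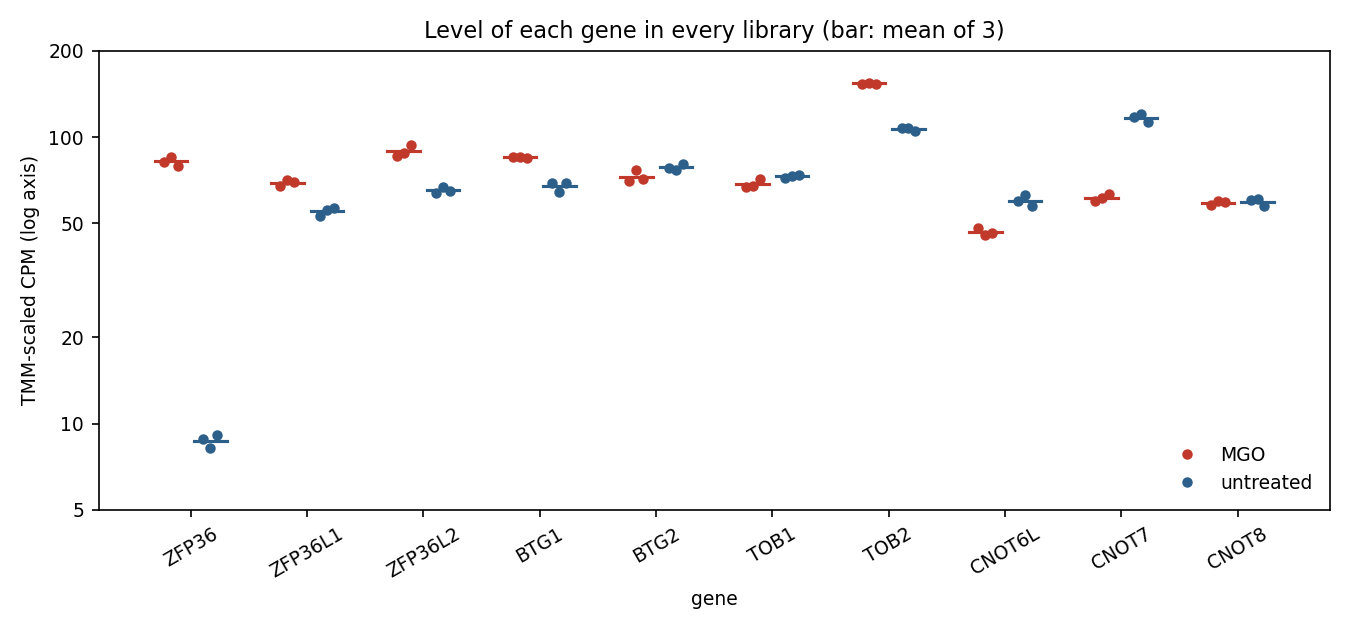
TMM-scaled CPM (log axis) of the 10 genes in the 3 MGO and 3 untreated libraries, 1 point per library with a bar at the mean. ZFP36 lies between 79.3 and 85.3 CPM in MGO and between 8.21 and 9.11 CPM in untreated libraries, CNOT7 is the clearest fall, and the CNOT8 points of the groups overlap.

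ZFP36, also called tristetraprolin, is an immediate early gene on chromosome 19 (39406813 to 39409412, plus strand). It had 81.9, 85.3 and 79.3 CPM in MGO libraries 1, 3 and 4, and 8.82, 8.21 and 9.11 CPM in untreated libraries 1, 2 and 4. Every MGO library was thus far above every untreated one, and the spread within a group was small beside the gap. The log2 fold change was 3.24 (SE 0.055, 9.43-fold, edgeR adjusted p = 4.48e-30), and 4.79% of tested genes rose by more. ZFP36 also had more raw counts in the shallower libraries, with 1482, 1589 and 1669 in MGO and 409, 393 and 388 in untreated libraries. It was the only one of the 10 genes with more raw counts in MGO.

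ZFP36L1 and ZFP36L2, paralogs that bind the same word, rose far less. ZFP36L1 (chromosome 14, 68787660 to 68796253, minus strand) had 67.4, 70.6 and 69.7 CPM in the MGO libraries, against 53.0, 55.7 and 56.6 CPM in the untreated libraries. ZFP36L2 (chromosome 2, 43222402 to 43226609, minus strand) had 86.1, 88.1 and 94.0 CPM in the MGO libraries, against 63.9, 66.7 and 65.0 CPM in the untreated libraries. For each of them the lowest MGO library was above the highest untreated one. The log2 fold change of ZFP36L1 was 0.33 (SE 0.043, edgeR adjusted p = 2.95e-08) and that of ZFP36L2 was 0.46 (SE 0.041, edgeR adjusted p = 1.23e-11).

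The make-up of the ZFP36 family therefore differed between the groups. Levels of different genes are compared here per kb of merged exons, since a longer mRNA gives more reads. The 3 genes summed to 77.1, 80.0 and 78.4 CPM per kb in MGO libraries and to 32.0, 32.9 and 33.1 CPM per kb in untreated libraries. ZFP36 made up 52.9%, 53.1% and 50.3% of that sum in MGO libraries and 13.7%, 12.4% and 13.7% in untreated libraries. ZFP36L2 held 29.8% to 32.4% in MGO and 53.2% to 54.8% in untreated libraries, and ZFP36L1 held 16.9% to 17.2% in MGO and 32.1% to 33.1% in untreated libraries. With the longest coding transcript as the length, ZFP36 was at 48.4% to 50.9% in MGO and 11.5% to 12.7% in untreated libraries, but ZFP36L1 and ZFP36L2 then held nearly the same share in untreated libraries (42.8% to 43.9% and 43.5% to 45.0%).

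**Figure D2:**
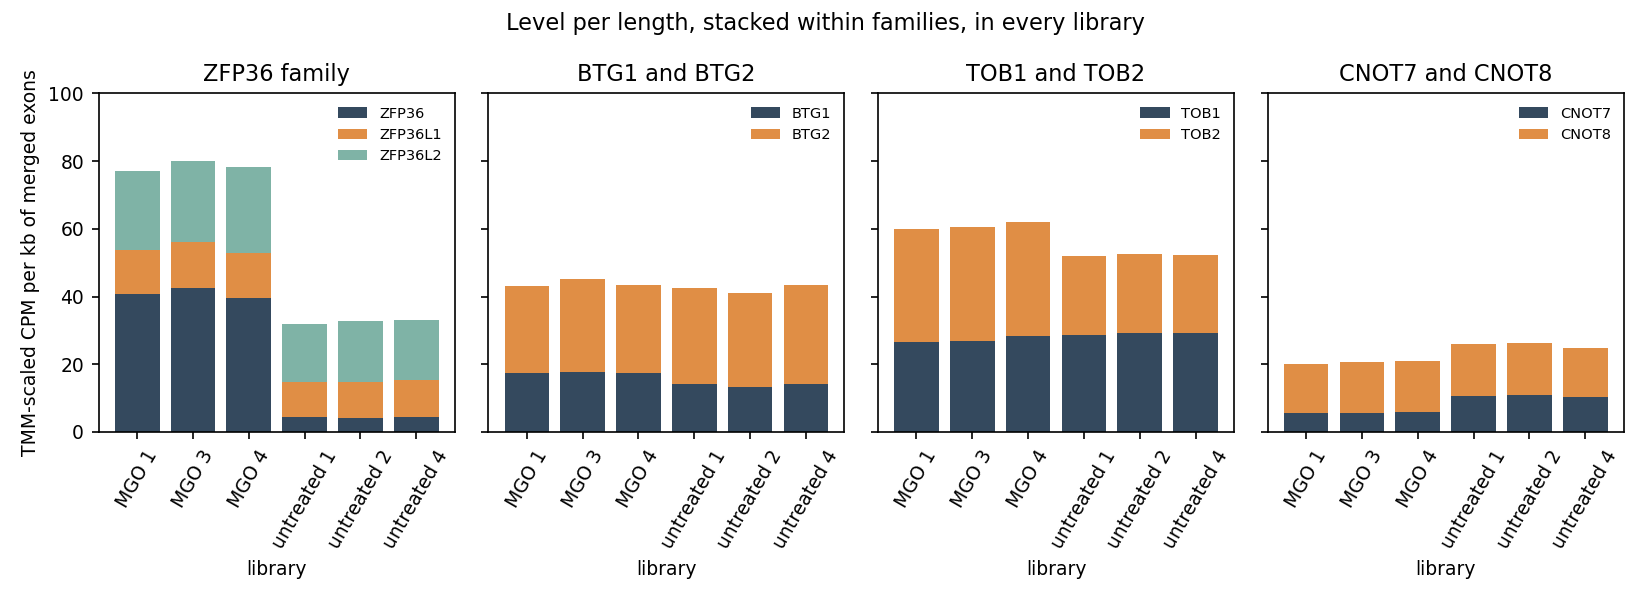
TMM-scaled CPM per kb of merged exons in each library, stacked within each of 4 groups of related genes, with the MGO libraries on the left of each panel. The ZFP36 layer takes 50.3% to 53.1% of its family's bar in MGO and 12.4% to 13.7% in untreated libraries, and the CNOT7 layer takes 27.0% to 27.6% of its bar in MGO and 41.3% to 41.6% in untreated libraries.

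Of the BTG genes, BTG1 rose and BTG2 fell slightly. Both restrain cell proliferation, and BTG2 is a known p53 target. BTG1 (chromosome 12, 92140278 to 92145897, minus strand) had 84.9, 85.3 and 84.8 CPM in the MGO libraries, against 68.8, 64.4 and 69.0 CPM in the untreated libraries. Its log2 fold change was 0.33 (SE 0.041, edgeR adjusted p = 7.51e-09), and the groups did not overlap. BTG2 (chromosome 1, 203305491 to 203309602, plus strand) had 70.5, 76.4 and 71.4 CPM in the MGO libraries, against 77.9, 77.0 and 80.7 CPM in the untreated libraries. The highest MGO value lay just under the lowest untreated value. The log2 fold change of BTG2 was -0.11 (SE 0.042, edgeR adjusted p = 0.0166), and 5 of 17 alternative analyses ended this call, with adjusted p up to 0.327; without untreated library 4 it was 0.0674.

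TOB2 rose and TOB1 fell slightly. These larger relatives of the BTG proteins also bind poly(A)-binding protein. TOB2 (chromosome 22, 41433492 to 41447023, minus strand) had 153.7, 154.7 and 153.3 CPM in the MGO libraries, against 107.5, 107.9 and 105.3 CPM in the untreated libraries. With a log2 fold change of 0.53 (SE 0.037, edgeR adjusted p = 3.19e-14), TOB2 had the second largest rise of the group. TOB1 (chromosome 17, 50862223 to 50867978, minus strand) had 66.8, 67.7 and 71.4 CPM in the MGO libraries, against 72.0, 73.3 and 74.0 CPM in the untreated libraries. Its log2 fold change was -0.09 (SE 0.041, edgeR adjusted p = 0.043), and 9 of 17 alternatives ended the call, with adjusted p up to 0.567. Among them were leaving out MGO library 3 (edgeR adjusted p = 0.0593), untreated library 2 (0.0769) or untreated library 4 (0.0895). The groups of TOB1 did not overlap, and its MGO values lay just under the untreated ones.

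The deadenylase genes fell or did not pass the test. CNOT7 (chromosome 8, 17224964 to 17246878, minus strand) had 59.7, 61.4 and 63.1 CPM in the MGO libraries, against 117.6, 119.8 and 112.6 CPM in the untreated libraries. Its log2 fold change was -0.93 (SE 0.041, edgeR adjusted p = 1.49e-19), which is 1.90-fold lower, and 18.2% of tested genes fell by more. CNOT6L (chromosome 4, 77713387 to 77819615, minus strand) had 48.0, 45.5 and 46.3 CPM in the MGO libraries, against 59.7, 62.5 and 57.2 CPM in the untreated libraries. The groups of these 2 genes did not overlap, and the log2 fold change of CNOT6L was -0.36 (SE 0.046, edgeR adjusted p = 2.21e-08). CNOT8 (chromosome 5, 154857553 to 154876793, plus strand) had 58.0, 59.6 and 59.5 CPM in the MGO libraries, against 60.1, 60.5 and 57.5 CPM in the untreated libraries. Its groups overlapped, and the log2 fold change was -0.0079 (SE 0.043, edgeR adjusted p = 0.869). CNOT8 was the only one of the 10 genes whose groups overlapped. Groups did not overlap for 83.5% of all tested genes, with MGO libraries all above in 41.8% and all below in 41.7%, beside 5 and 4 of the 10 genes.

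**Figure D3:**
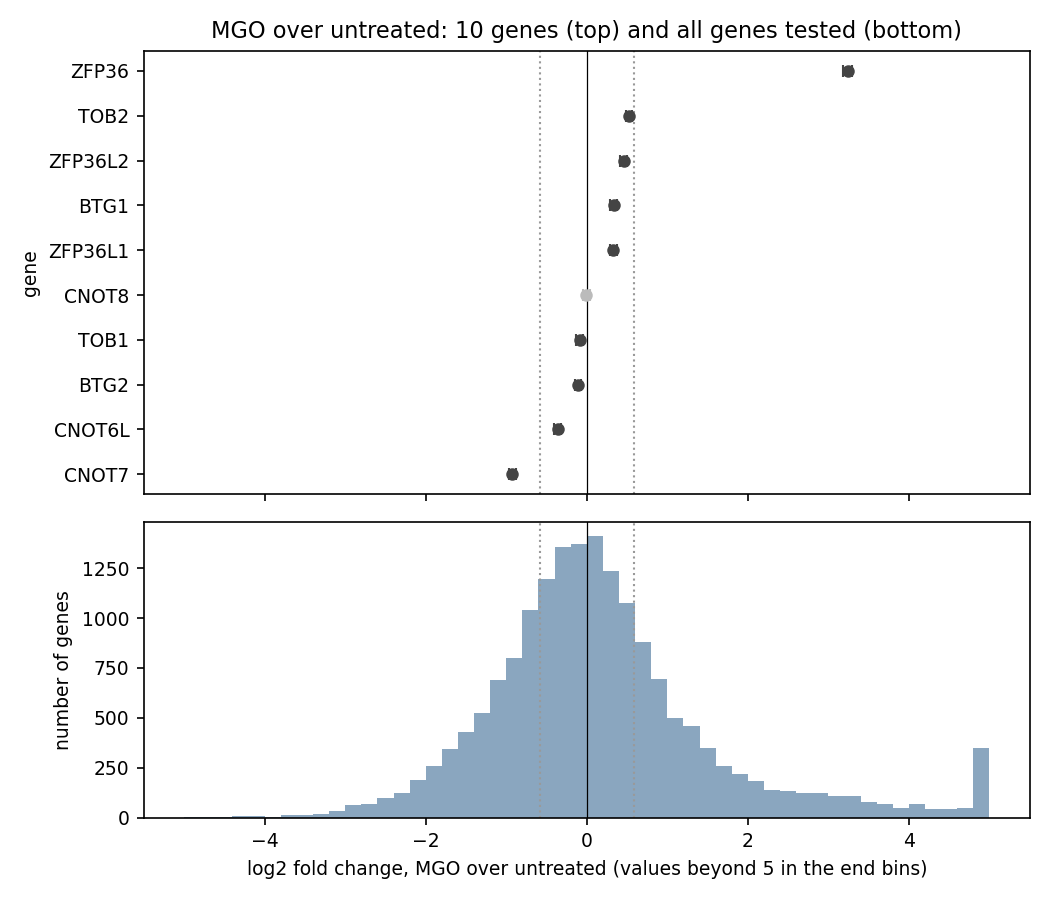
Top, log2 fold change (MGO over untreated) of the 10 genes with their SE as bars, black where the edgeR adjusted p is under 0.05. Bottom, the same quantity for all 17415 tested genes, with dotted lines at a fold of 1.5; apart from ZFP36 (3.24) and CNOT7 (-0.93), the genes sit inside the dotted lines, near the middle of the distribution.

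Ratios of raw counts between related genes within a library do not depend on scaling for depth. ZFP36 had 1.22, 1.21 and 1.14 counts per count of ZFP36L1 in MGO libraries 1, 3 and 4, and 0.166, 0.147 and 0.161 in untreated libraries 1, 2 and 4, a ratio that was 7.51-fold higher in MGO. CNOT7 had 1.03, 1.03 and 1.06 counts per count of CNOT8 in MGO libraries, against 1.96, 1.98 and 1.96 in untreated libraries. The ratio varied little within each group, and in MGO it was 0.529 times as high. BTG2 had 0.830, 0.896 and 0.843 counts per count of BTG1 in MGO libraries and 1.13, 1.20 and 1.17 in untreated libraries. TOB1 had 0.434, 0.438 and 0.465 counts per count of TOB2 in MGO libraries, against 0.669, 0.680 and 0.703 in untreated libraries. CNOT6L had 0.312, 0.286 and 0.272 counts per count of its alternative subunit CNOT6 in MGO libraries and 0.383, 0.409 and 0.377 in untreated libraries. Even ZFP36L1 to ZFP36L2 was lower in every MGO library (0.741 to 0.802) than in every untreated one (0.829 to 0.870). Over the 7 pairs compared, the groups did not overlap in any ratio (two-sided exact permutation p = 0.1 for each, and 0.1 after Benjamini-Hochberg adjustment). With 3 libraries a group no lower p was possible. Since the groups did not overlap for 83.5% of single genes, and no share over other pairs of genes was computed, nothing particular to these pairs is read from this count.

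**Figure D4:**
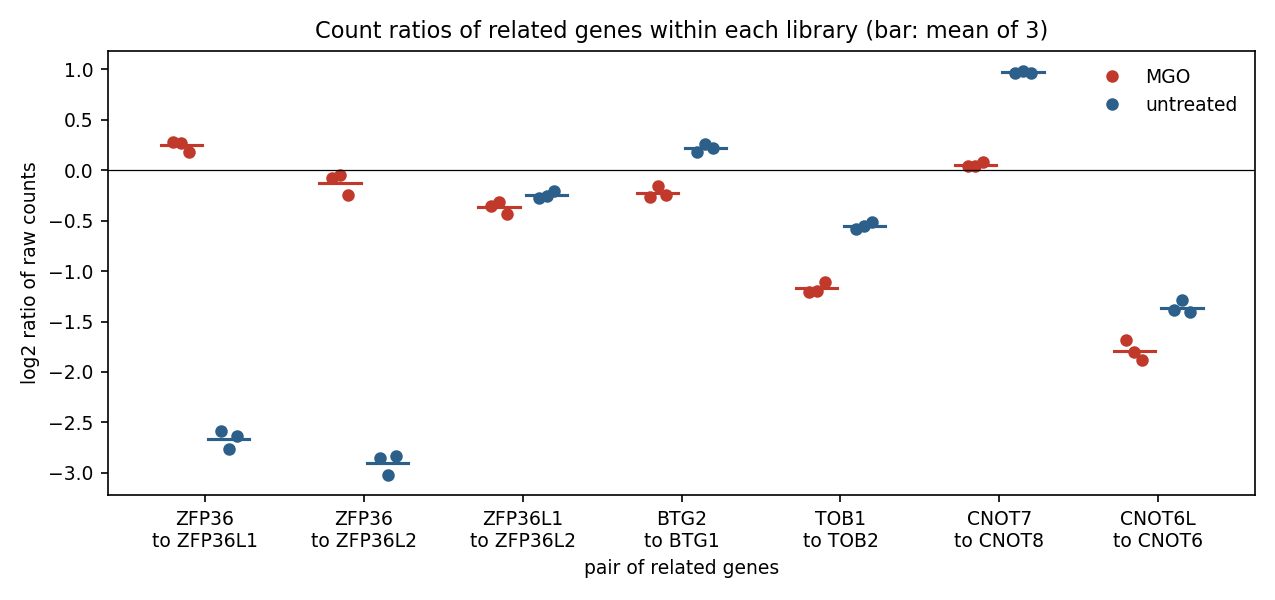
Log2 ratio of raw counts of 7 pairs of related genes, 1 point per library, MGO on the left of each pair and a bar at the mean. The groups do not overlap in any of the 7 pairs, with the widest gaps for ZFP36 to ZFP36L1 and ZFP36 to ZFP36L2 and the next widest for CNOT7 to CNOT8, whose points lie close together within each group.

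Per length, ZFP36 had the highest level of the 10 genes in MGO cells and the lowest in untreated cells. In MGO cells the order per kb of merged exons was ZFP36 (40.9 ± 1.5 CPM per kb, SD, n = 3 here and below), TOB2 (33.7 ± 0.158), TOB1 (27.2 ± 0.967), BTG2 (26.4 ± 1.17), ZFP36L2 (24.2 ± 1.11), BTG1 (17.5 ± 0.0584), CNOT8 (15.0 ± 0.238), ZFP36L1 (13.4 ± 0.327), CNOT7 (5.61 ± 0.156) and CNOT6L (4.97 ± 0.139). In untreated cells it was TOB1 (29 ± 0.404 CPM per kb), BTG2 (28.5 ± 0.695), TOB2 (23.4 ± 0.314), ZFP36L2 (17.6 ± 0.383), CNOT8 (15.1 ± 0.420), BTG1 (13.9 ± 0.538), ZFP36L1 (10.7 ± 0.364), CNOT7 (10.7 ± 0.340), CNOT6L (6.39 ± 0.283) and ZFP36 (4.34 ± 0.229). TOB1 and BTG2 were within each other's spread in both groups, and so were ZFP36L1 and CNOT7 in untreated cells. TOB2 was above TOB1 in MGO and below it in untreated cells. With the longest coding transcript as the length, ZFP36 was again first in MGO and last in untreated cells, and BTG1 took place 8 in place of 6 in each group. TOB1 and BTG2 then stood further apart, at 30.8 and 26.8 CPM per kb in MGO and 32.8 and 28.9 in untreated cells. In untreated cells CNOT8 (21.9) then stood above ZFP36L2 (17.6).

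The annotation was searched for stretches of the read length that these genes share with others. No window of 100 bases in any annotated transcript of ZFP36, ZFP36L1, ZFP36L2 or BTG2 occurs in a transcript of another gene. For BTG1, 9.93% of windows are shared with the overlapping non-coding genes LINC01619 and AC025164.1, for TOB1 3.33% with its antisense gene TOB1-AS1, for CNOT6L 1.81% with the pseudogene CNOT6LP1 and for TOB2 1.45% with AC007228.1. CNOT7 shares 0.966% of its windows with VPS37A on the opposite strand, which had 432 to 481 counts in MGO and 1202 to 1326 in untreated libraries. CNOT8 shares 1.15% with FAXDC2 on the opposite strand, which had 79 to 93 counts in MGO and 88 to 106 in untreated libraries. The counts of VPS37A and FAXDC2 are raw, and mean total counts in MGO were 0.455 times those in untreated libraries. Raw counts that are not divided by depth cannot be compared between the groups, and no scaled values of VPS37A and FAXDC2 are given here. Values of these genes may include reads of their overlapping partners, since the strand setting was not given in the sources used here.

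The other genes of tail shortening changed in both directions, and the scaffold of the complex rose by less than 1.5-fold. Lists here were read against the background of 41.8% higher and 41.2% lower. BTG3, the other BTG gene that passed the filter, rose to 158 ± 5.12 CPM in MGO, against 55.1 ± 2.19 CPM in untreated cells (log2 fold change 1.52, edgeR adjusted p = 3.89e-25). BTG4 had 0 CPM in each group. Among 9 further CCR4-NOT genes there were 5 higher, 3 lower and 1 without a call, at a median log2 fold change of 0.19. CNOT4, a ubiquitin ligase that associates with the complex, stood at 86.7 ± 5.47 CPM in MGO and 23.9 ± 1.31 CPM in untreated cells, CNOT3 at 338 ± 25 and 140 ± 5.35 CPM, and CNOT10 at 89.2 ± 4.11 and 40.8 ± 0.773 CPM. CNOT1, the scaffold that ZFP36 contacts, was at 453 ± 14.3 CPM in MGO and 331 ± 3.94 CPM in untreated cells (log2 fold change 0.45, 1.37-fold, edgeR adjusted p = 3.34e-13). It was not called against a fold of 1.5. TNKS1BP1 fell to 18.9 ± 1.83 CPM in MGO, against 43.5 ± 1.03 CPM in untreated cells. CNOT6, the alternative to CNOT6L, was at 161 ± 8.47 CPM in MGO and 154 ± 2.24 CPM in untreated cells and did not pass (edgeR adjusted p = 0.11).

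Other deadenylases, tail-modifying enzymes and poly(A)-binding proteins numbered 9, with 3 higher, 4 lower and 2 without a call, and none was called and at least 2-fold changed. Their median log2 fold change was -0.065. PDE12, a mitochondrial deadenylase, had a log2 fold change of 0.66, the nuclear poly(A)-binding protein PABPN1 0.38, and PAPD7, a poly(A) polymerase, -0.60. Among 18 genes of decapping and decay from the 5′ end, 11 rose, 6 fell and 1 was not called; the median log2 fold change was 0.21. The decapping activator DCP1A stood at 71.9 ± 2.79 CPM in MGO and 26.7 ± 1.29 CPM in untreated cells, the exonuclease XRN1 at 114 ± 8.39 and 44.1 ± 1.29 CPM, and EDC3 at 184 ± 12.3 and 92.5 ± 2.12 CPM. The exosome and SKI complex, which degrade RNA from the 3′ end, had 17 genes, with 10 higher, 5 lower and 2 without a call at a median of 0.32. EXOSC9 stood at 118 ± 2.19 CPM in MGO and 49.9 ± 1.45 CPM in untreated cells, the nuclease DIS3 at 134 ± 7.52 and 71.8 ± 2.33 CPM, and EXOSC6 at 99.6 ± 4.93 and 163 ± 4.13 CPM.

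Of 18 genes of other proteins that bind AU-rich or 3′ UTR sequences, 17 passed the filter and all 17 were called, 11 higher and 6 lower. Their median log2 fold change was 0.22, and with no filter on low counts 6 were called higher. ELAVL1, also called HuR, which stabilises AU-rich mRNAs, fell to 170 ± 5.12 CPM in MGO, against 297 ± 2.19 CPM in untreated cells (log2 fold change -0.80, edgeR adjusted p = 4.59e-19). TIAL1, which restrains translation of AU-rich mRNAs, was at 174 ± 5.48 CPM in MGO and 112 ± 1.53 CPM in untreated cells. NANOS1, which recruits CCR4-NOT, fell to 5.95 ± 0.503 CPM in MGO, against 33.3 ± 0.730 CPM in untreated cells, and ZC3H12A, an endonuclease, was low in both (2.28 ± 0.300 CPM in MGO and 4.68 ± 0.451 CPM in untreated cells). Among 15 genes of the p38 and MK2 kinases, which inactivate ZFP36 by phosphorylation, of phosphatase 2A, which reverses this, and of the 14-3-3 proteins that hold the phosphorylated form, 4 rose, 10 fell and 1 was not called, with a median of -0.36 on the log2 scale; the genes called higher were 2 with library size only, with no filter or with the replicate block. PPP2CA, a catalytic subunit of phosphatase 2A, was at 576 ± 5.52 CPM in MGO and 240 ± 4.17 CPM in untreated cells, and PPP2CB at 123 ± 1.20 and 74.5 ± 0.883 CPM. PPP2R1A, another phosphatase 2A gene of the list, fell to 512 ± 24.8 CPM in MGO, against 659 ± 6.83 CPM in untreated cells. MAP2K6, a kinase that activates p38, fell to 5.41 ± 0.379 CPM in MGO, against 18.8 ± 0.924 CPM in untreated cells. Every kinase gene of the list was called lower, while the phosphatase 2A and 14-3-3 genes went both ways. This split was read after the values were seen.

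**Figure D5:**
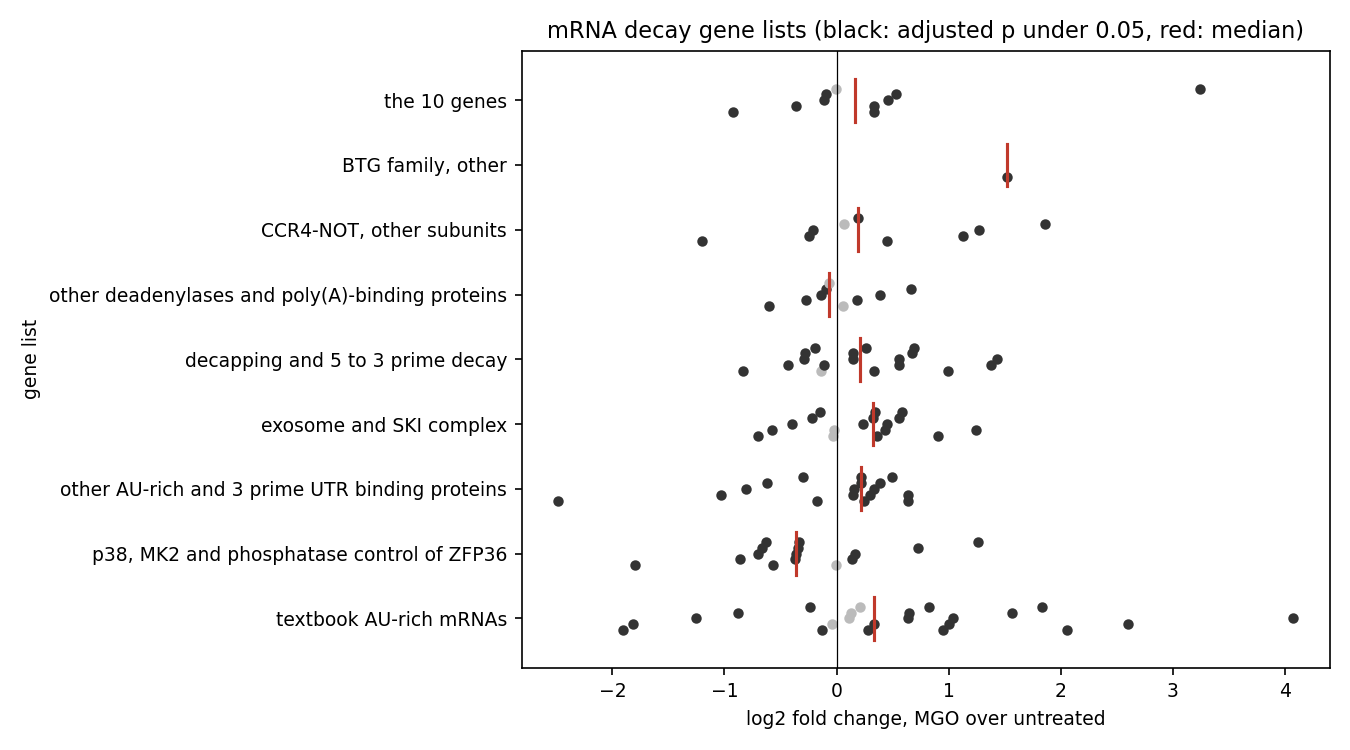
Log2 fold change (MGO over untreated) of the tested genes of each list, 1 point per gene, black where the edgeR adjusted p is under 0.05 and grey otherwise, with the list median as a red line. Every list but the single BTG gene holds points on each side of 0, and ZFP36 is the point at 3.24 in the top row.

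Textbook AU-rich mRNAs were split as well. Of 30 listed, 23 passed the filter, and 13 rose, 6 fell and 4 had no call, with a median of 0.34 on the log2 scale. CDKN1A, a cell cycle inhibitor, stood at 537 ± 11.9 CPM in MGO and 129 ± 2.67 CPM in untreated cells, the immediate early gene IER2 at 96.1 ± 7.11 and 32.5 ± 0.380 CPM, and the survival factor MCL1 at 602 ± 19.1 and 293 ± 3.78 CPM. DUSP1, a phosphatase that turns p38 off, was at 122 ± 6.17 CPM in MGO and 60.9 ± 2.44 CPM in untreated cells. CCND1, which encodes cyclin D1, fell to 15.0 ± 1.11 CPM in MGO, against 52.7 ± 2.17 CPM in untreated cells, and BCL2 to 8.35 ± 0.753 CPM, against 31.3 ± 1.52 CPM. Over the annotated 3′ UTRs, genes with 2 or more copies of TTATTTATT were called higher in 39.0% and lower in 46.5% of 310 cases, those with 1 copy in 40.0% and 47.4% of 971, and those with none in 39.4% and 45.9% of 12132. Among 3′ UTRs shorter than 807 bases, 56.9% of the 102 genes with 1 copy were higher and 30.4% lower, beside 46.5% and 35.5% of the 4351 with none. For lengths between these and 2180 bases, 42.0% of the 250 genes with 1 copy were higher and 44.0% lower. There it was 39.5% and 35.5% of the 76 with 2 or more copies, and 39.0% and 47.6% of the 4143 with none. Among 3′ UTRs of 2180 bases or more, 35.5% of the 217 genes with 2 or more copies were higher and 53.0% lower. There it was 36.3% and 51.5% of the 619 with 1 copy, and 31.4% and 56.3% of the 3638 with none. These shares are descriptions with no test, and the classes differ in 3′ UTR length.

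The genes whose profile over the 6 libraries was most like that of ZFP36, by Euclidean distance of mean-centred log2 CPM, were GADD45B (distance 0.116, log2 fold change 3.29), DDX39B (0.126, 3.26) and the clone-named transcript RP11-829H16.5 (0.149, 4.89, at 0.762 CPM in MGO and 0.0220 CPM in untreated cells). Those most like CNOT7 were MFSD8 (0.0344, -0.93), SLC10A7 (0.0384, -0.92) and KIAA1958 (0.0554, -0.91). These distances are descriptions over 6 libraries that share depth within each group. They used log2 CPM with a prior count of 2, which shrinks differences at low levels. The match of RP11-829H16.5 therefore rests on values near the floor, as its log2 fold change was 4.89, beside 3.24 for ZFP36.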

How the data were processed

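Poly(A) RNA of 6 libraries was measured as paired reads of 100 bases, per the labels' protocols. For each library the authors deposited 1 table of whole-number counts by gene symbol, with no scaling. The submitters' processing notes name build hg38, HTSeq 0.9.1, STAR 2.4, Trim Galore and Picard; roles, annotation and strand setting were not given in the sources used here. Of the rows, 29 carry a date in place of a symbol (0.178% to 0.242% of counts) and 4 share a name; none of them is named here. Within groups, chi-square per degree of freedom between libraries was 1.88 to 14.7 over genes with at least 20 counts, so no pair agreed within sampling noise. Technical scatter between libraries of the same culture can also give such values, so they do not show separate cultures. Each library was counted as 1 sample.

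Counts were tested with edgeR 4.0.16 in R 4.3.3 (filterByExpr, TMM, robust glmQLFit, two-sided glmQLFTest without covariates, 4 residual degrees of freedom, Benjamini-Hochberg over 17415 genes at 0.05, and glmTreat against a fold of 1.5). The SE is the log2 fold change divided by the square root of F. Log2 CPM used a prior count of 2. Count ratios were compared by two-sided exact permutation. The test was tried on simulated counts first. All 10 symbols were found in GENCODE release 29 (GRCh38, which hg38 also is), the source of exon lengths, coordinates and 3′ UTRs, and promoters are from RefSeq on GRCh38.p14. Depth limits precision, and reads amplified by PCR and not tagged by molecule are not independent.

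Every one of the 10 genes is described. From each list the 3 genes with the smallest p and those called and changed at least 2-fold were named, at most 6 a list. CNOT1, CNOT6 and PPP2R1A were named after their values were seen. Members and lists were chosen with earlier results of these data known. The alternatives changed the scaling (RLE, upper quartile, library size only), the filter (none, or a minimum of 1 CPM in all libraries), or the libraries (each left out, and both numbered 1 left out). Others were the replicate number as a block, limma 3.58.1 voom, DESeq2 1.42.0, no robust shrinkage, and untreated libraries thinned to the MGO depth.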

Additional observations from a re-analysis of the deposited data

How the results depend on the processing

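Across 17 alternatives, ZFP36 (log2 fold change 3.06 to 3.30), ZFP36L1 (0.15 to 0.40), ZFP36L2 (0.27 to 0.53), BTG1 (0.15 to 0.40), TOB2 (0.34 to 0.59), CNOT6L (-0.55 to -0.30) and CNOT7 (-1.11 to -0.86) kept their direction and their call. The number of the 10 genes called lower was 4, and it was 2 with RLE scaling, with at least 1 CPM in every library, with DESeq2 and with thinned untreated libraries; it was 2 to 4 when a library was left out, the 2 without untreated library 4. BTG2 and TOB1 are the calls lost. CNOT8 changed sign with RLE scaling (0.014), upper quartile scaling (0.011), at least 1 CPM in every library (0.057), DESeq2 (0.014), thinning (0.031) and without both libraries numbered 1 (0.0020), always without a call, and was called lower with library size only (-0.11, adjusted p = 0.0271) and with no filter (-0.19, adjusted p = 0.000125). Those last 2 settings moved all genes by a median log2 fold change of -0.106 and -0.183. Over all genes, 2674 passed a fold of 1.5 upward when at least 1 CPM was required in every library, where fewer genes are tested, beside 4363. With the replicate block, TOB1 lost its call (-0.080, edgeR adjusted p = 0.272) and no other of the 10 genes did. The labels do not say what a shared number means. The correlation of deviations was 0.0204 between the libraries numbered 1 and -0.0078 between those numbered 4. Such values cannot show whether same-numbered libraries shared a batch. All 70 alternative values of the count ratios kept their direction. Of 340 list counts 18 moved by over 1.5 times. Among them, the p38 and phosphatase genes called higher were 2 with library size only, no filter or the replicate block, beside 4, and the AU-rich binding proteins called higher were 6 with no filter, beside 11.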

Other observations

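RefSeq promoter windows, from 250 bases before to 50 bases after a start, were found for 8 of the 10 genes. CNOT6L and CNOT8 had 3 windows each, ZFP36L1 and TOB1 had 2 each, and ZFP36, BTG1, BTG2 and TOB2 had 1 each. The cyclic AMP response element TGACGTCA, searched on both strands, occurred in a window of ZFP36L1 and in no window of the other 7 genes, and in 1.85% of all 35116 windows. Its shorter form TGACG, which the long word contains, was also searched on both strands. It occurred in 7 windows, from BTG1, BTG2, CNOT6L, CNOT8, TOB1 and ZFP36L1, and in 24.6% of all windows. A gene with more windows has more places for a match, so the number of genes is not set against that share. The word TATAAA, searched on both strands, occurred in BTG1 and in 11.5% of all windows. No window of the 8 genes held a CArG box, found in 1.29% of all windows. None of these words occurred in the window of ZFP36. A match is a description of letters, and no match says only that the letters are not in this window.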
